A study of Mus musculus with 26 samples.

Results

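The integrated stress response and transcripts with regulatory upstream open reading frames (uORFs) were examined through 10 genes, taken by gene symbol: Atf4, Atf5, Ppp1r15b, Ifrd1, Eif2ak1, Eif2ak3, Eif2ak4, Eif2s1, Asns and Ddit3. The deposited tables list 8 of the 10, each with 1 transcript in each of the 3 tables, among 8576, 8576 and 9561 transcripts. Atf5 and Ddit3, which encode transcription factors of the response, are not among the transcripts listed and were not analysed. The tables come from ribosome profiling of LRRK2 mouse models, in which mRNA fragments protected by ribosomes (footprints) and total RNA (RNA-Seq) of the striatum were sequenced. LRRK2 is a kinase mutated in Parkinson's disease, and the study asked how its activity and its loss alter translation. Each table, named below by its genotype as the GS, GS/DA or LRRK2 KO table, compares that genotype with its own control and holds 1 normalised mean per group and assay.

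All mice were C57BL/6 and 3 months old by the labels. Mice expressing G2019S LRRK2 (GS LRRK2 TG) or kinase-dead G2019S/D1994A LRRK2 (GS/DA LRRK2 TG) were compared with non-transgenic (non-TG) controls, and LRRK2 KO mice with wild-type (WT) mice. By the study's methods, the CaMKII-tTA driver, active in forebrain neurons, switched on the transgenes once doxycycline chow was withdrawn at weaning. A library was made from caudate putamen pooled from 3 mice of mixed sex and does not show variation between single mice. The labels name, for each assay, 3 samples of non-TG control and 2 of either transgenic line, and 3 footprinting and 2 RNA-Seq samples of the striatum for WT and for LRRK2 KO. Where a mean combines 2 libraries, the reads of both can be read back from it, and this was possible for 10 of the 12 columns of means. The recovered libraries held from 2863760 to 16017990 reads in coding sequences (CDS) and carry no replicate number. Each recovered mean resolved into 2 libraries, also where the labels name 3 samples. Values of single libraries below are reads divided by the library's size factor. The non-TG columns of the GS table could not be resolved, so that table gives no spread for its control and no test. Both transgenic comparisons share non-TG control samples, so the values of each are set side by side and no likeness between them is read as a result.

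Cells sense amino acid shortage, misfolded protein in the endoplasmic reticulum and heme or mitochondrial stress through kinases that phosphorylate the α subunit of the initiation factor eIF2. Phosphorylated eIF2α lowers initiation on most mRNAs, while mRNAs such as Atf4, whose uORFs divert ribosomes from the CDS in resting cells, are then translated better. ATF4 raises the transcription of genes for amino acid supply, and a phosphatase returns eIF2α to its resting state.

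Lrrk2 was examined first as a check of the genotypes. In the LRRK2 KO table, the Lrrk2 footprints were 690.1 and 400.3 in the WT libraries and 149.7 and 102 in the LRRK2 KO libraries, and the RNA-Seq reads were 733 and 1278 in WT and 270.02 and 423 in LRRK2 KO. In the GS/DA table, Lrrk2 had 1224 and 1445 footprints in non-TG control and 4766 and 7267 in GS/DA LRRK2 TG, with 560.2 and 5233 RNA-Seq reads in control and 404 and 5038 in GS/DA LRRK2 TG. The GS LRRK2 TG libraries held 3320.5 and 7052 Lrrk2 footprints, against a control mean of 2524, and 214 and 3549.6 RNA-Seq reads, against a control mean of 2105. Footprints of Asns had control means of 2593 in the GS table and 3366 in the GS/DA table. Those of Lrrk2 ran the other way, 2524 against 1335, and the cause of this high control mean was not tested. Footprints of Lrrk2 thus followed the labels in every recovered library, whereas its RNA-Seq reads in the transgenic tables differed far more between libraries of a group than between genotypes. Other genes behaved likewise. Where the mean exceeded 300, both libraries of a group were compared by their log2 ratio, whose SD over transcripts was 1.46 to 1.74 for RNA-Seq in the transgenic tables, 0.279 to 0.359 for their footprinting, and 0.584 to 0.671 in the LRRK2 KO table.

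The labelled tissue was checked with markers. All tables list 10 symbols of the striatal projection neuron list, with Ppp1r1b, which encodes DARPP-32, the most abundant. The summed footprints of this list were 133995 in control and 124256 in GS LRRK2 TG, 178637 and 145892 in the GS/DA table, and 38881 in WT and 40209 in LRRK2 KO. Cortical projection neuron markers differed in the GS/DA table, where 3 of 6 lay past a log2 change of 0.5 in footprints and the same number in RNA-Seq, as did 0.816% and 2.72% of all transcripts. Their median footprinting change there was 0.67, against -0.01 over all transcripts, and 2 of 10 striatal markers lay past -0.5 in footprints. Tbr1, a transcription factor of cortical neurons, had 289 and 491 footprints in the non-TG control libraries and 768 and 1321 in GS/DA LRRK2 TG, although the summed cortical footprints, led by Nrgn, were 21106 and 20457. In LRRK2 KO, 3 of 9 cortical markers, Tbr1, Rasgrf2 and Fezf2, were higher in TE, by 0.87, 0.67 and 0.53, and 2 were lower in RNA-Seq, where 6.23% of all transcripts were higher in TE and 3.18% lay past the fold in RNA-Seq. Their median TE difference was 0.28, against 0.02 over all transcripts. In GS LRRK2 TG, 2 of 6 were higher in TE (8.01% of all transcripts), with an RNA-Seq change of -0.92 for Slc17a7. The GS LRRK2 TG footprinting libraries themselves differed in these markers, with 143 and 703 footprints of Tbr1 and summed striatal footprints of 146018 and 102493. Ttr, the most abundant choroid plexus marker by the control mean of the GS/DA table, had 17056 and 1193 footprints in the control libraries and 1137 and 5162 in GS/DA LRRK2 TG, so a single control library carried most of it. In the GS LRRK2 TG libraries it had 408 and 1037 footprints, against a control mean of 3944, with changes of -2.45 in footprints and -1.89 in RNA-Seq. The TE of Ttr differed by -0.56 in GS LRRK2 TG, -0.66 in GS/DA LRRK2 TG and 1.14 in LRRK2 KO, all past the cutoff described below. The summed choroid plexus footprints, over 3 listed genes, were 8252 in control and 4452 in GS LRRK2 TG, 15699 and 8240 in the GS/DA table, and 935 in WT and 944 in LRRK2 KO. The 8 listed oligodendrocyte markers, the 7 astrocyte markers and the microglial markers had none past the fold in footprints in any table. In RNA-Seq, the microglial C1qa and C1qb were higher in LRRK2 KO by 0.54 and 0.73 and the astrocyte marker Slc1a2 lower by -0.67, and the TE of Slc1a2 and C1qb differed by 0.79 and -0.73. In GS LRRK2 TG, 2 oligodendrocyte and 2 astrocyte markers were past the TE cutoff upwards (8.01% of all transcripts), and C1qa downwards (3.91%). Of the striatal markers, Tac1 alone passed it, in LRRK2 KO (0.56, z 1.98). In bulk tissue, fewer cells of a type and less RNA per cell cannot be told apart. The part of these markers in the results that follow was not tested.

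Translational efficiency (TE) is the mean of footprints over that of RNA-Seq reads in a group, on the log2 scale. In the control of the GS table, log2 TE was -3.61 for Atf4, -1.58 for Ifrd1, -0.9997 for Eif2ak3, -0.82 for Ppp1r15b, -0.76 for Eif2ak1, -0.61 for Eif2ak4, 0.23 for Asns and 0.58 for Eif2s1, against a median of -0.17 over all transcripts. In the control of the GS/DA table, log2 TE was -3.55 for Atf4, -1.44 for Ifrd1, -0.88 for Eif2ak3, -0.59 for Ppp1r15b, -0.58 for Eif2ak1, -0.45 for Eif2ak4, 0.43 for Asns and 0.64 for Eif2s1 (median 0.04). In WT, log2 TE was -2.92 for Atf4, -2.02 for Ifrd1, -1.67 for Ppp1r15b, -1.54 for Eif2ak3, -1.17 for Eif2ak4, -0.82 for Eif2ak1, 0.15 for Asns and 0.49 for Eif2s1 (median -0.64). The order began with the uORF transcripts Atf4 and Ifrd1 in each control and ended with Asns and Eif2s1, the subunit that the stress kinases phosphorylate, which both stood above the median. Ppp1r15b, whose mRNA also carries uORFs, stood above Eif2ak3 in both non-TG control means and below it in WT. Atf4 had 0.0819, 0.0855 and 0.132 footprints per RNA-Seq read in these 3 controls. Its TE stood at percentiles of 0.0991, 0.0525 and 1.04 over all transcripts, by mean rank with Atf4 itself included.

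Since footprinting and RNA-Seq libraries were not matched to each other, log2 TE was also taken over all 4 pairings of libraries. In the non-TG control of the GS/DA table, Atf4 ranged from -4.24 to -2.99 and lay apart from Ifrd1, the next member, which ranged from -2.24 to -0.50. Ifrd1 and the members up to Eif2ak4 overlapped their neighbours, and Eif2ak4, with -0.64 to -0.26, lay below Asns, with 0.30 to 0.55. Eif2s1 ranged from 0.00 to 1.59 and overlapped Asns. In WT, Atf4 ranged from -3.52 to -2.09 and Ifrd1 from -2.40 to -1.61, so the 2 overlapped, as did every further pair of neighbours. Atf4 lay apart from Ifrd1 again in LRRK2 KO, with -3.91 to -3.48 against -2.22 to -1.79.

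**Figure D1:**
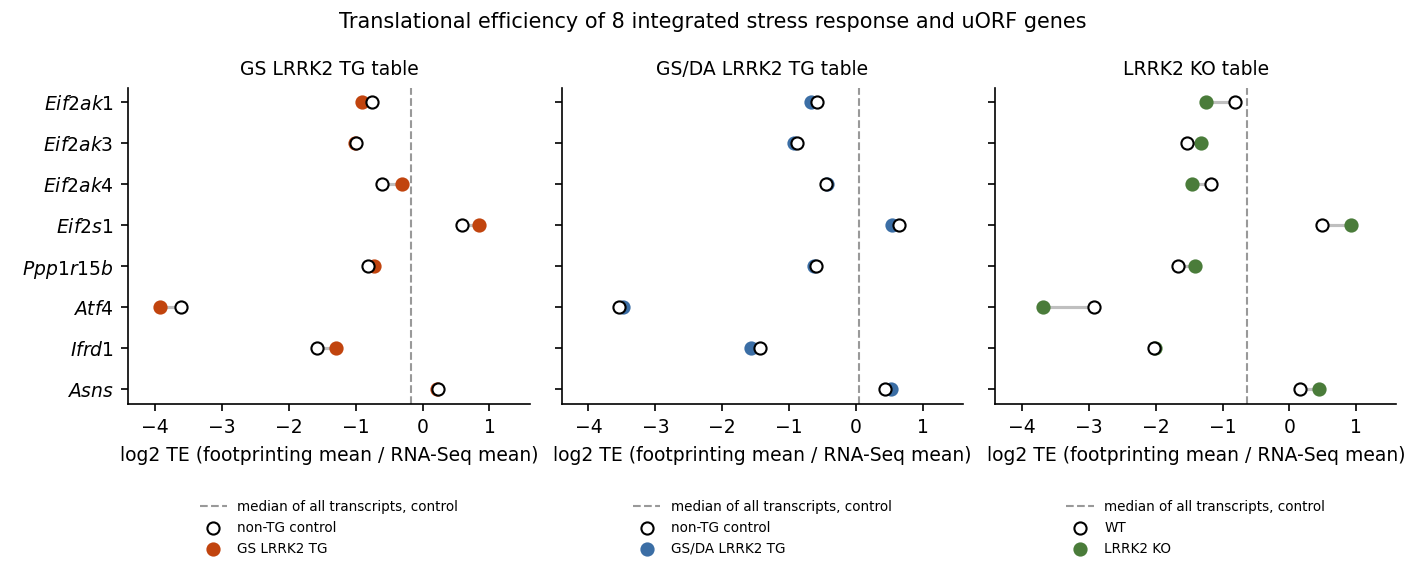
Log2 TE (mean of footprints over mean of RNA-Seq reads) of the 8 genes on the horizontal axis, with open points for the control, filled points for the genotype and a dashed line at the median of all transcripts in the control, in the 3 tables. Atf4 stands lowest in all 6 groups, from -3.93 in GS LRRK2 TG to -2.92 in WT, and Asns and Eif2s1 stand above the median.

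Levels of these genes were compared per kilobase of CDS. In the control of the GS/DA table, Atf4 had the highest RNA-Seq level of the 8, 2844 reads per kilobase, followed by Asns with 1485, Eif2s1 with 977 and Eif2ak1 with 691. By footprints per kilobase, Asns came first with 1996, then Eif2s1 with 1523 and Eif2ak1 with 462, and Atf4 had 243. Eif2ak3 and Eif2ak4 had the lowest levels, with 74.6 and 53.1 footprints per kilobase. In WT, the RNA-Seq levels of Atf4 and Asns were closer, 595 and 579.9 reads per kilobase. Levels were not ranked among all transcripts.

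Upstream ATG codons were read from the annotated 5′UTR of each gene (NCBIM37, the assembly that mm9 is made from). The Atf4 transcript has a 5′UTR of 594 bases with 3 upstream ATG codons, which open frames of 36, 3 and 59 codons. The last of these frames runs past the Atf4 start codon in another reading frame and covers 83 bases, or 7.90%, of the CDS, so footprints of ribosomes on that stretch cannot be assigned to either frame in a count over the CDS. The start codons are shown with 9 bases before and 6 after the ATG, which is in capitals, because they are the sites at which the Atf4 frames open. The sites lie on the plus strand at chr15:80085733-80085735 for the frame of 36 codons, chr15:80086012-80086014 for the frame of 3 codons, chr15:80086111-80086113 for the frame of 59 codons, and chr15:80086729-80086731 for the CDS. The upstream ATG of Ifrd1, which opens a frame of 52 codons, lies on the minus strand at chr12:40949743-40949745.
Atf4 upstream frame of 36 codons: ttttctctcATGgggcct
Atf4 upstream frame of 3 codons: gcggccaccATGgcgtat
Atf4 upstream frame of 59 codons: gcctaagccATGgcgctc
Atf4 CDS: ccccacaacATGaccgag
Ifrd1 upstream frame of 52 codons: gagagaaacATGtatcgt
A purine stands 3 bases before the ATG at every site shown but that of the 36-codon frame, and the 3 upstream ATG codons of Atf4 have a G right after, which the Atf4 CDS start lacks. Ppp1r15b and Eif2ak3 each have 3 upstream ATG codons, Eif2s1 has 2, Asns has 1, and Eif2ak1 and Eif2ak4 have 0. At least 1 was found for 6 of the 8 genes and at least 3 for 3 of them. Some of the 8 were chosen for their uORFs, so the shares of 51.4% and 18.4% among the 8185 genes of the transgenic tables with an annotated 5′UTR are given as background only. Genes with 0, 1 to 2, and 3 or more upstream ATG codons had median control log2 TE values of 0.19, -0.09 and -0.17 in the GS/DA table and of -0.49, -0.74 and -0.95 in WT. Among genes with 3 or more, the TE of Atf4 stood at a percentile of 0.233 in the former control and 2.56 in WT. The annotation gives Eif2s1 2 upstream ATG codons beside a TE above the median, so their number alone did not order the members. The authors' tables also give the lowest predicted folding energy over the isoforms of a gene, which need not belong to the 5′UTR counted here and was not compared with the number of ATG codons.

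The transcripts whose log2 TE over the 6 group means lay nearest to Atf4 by Euclidean distance, among 8535 transcripts, were Spnb3 at 0.558, Pomgnt1 at 0.824 and Csnk1g2 at 0.839, against a median distance of 8.14. The log2 TE of Spnb3, a brain spectrin, ranged from -3.94 to -3.43 over the 6 groups, and that of Atf4 from -3.93 to -2.92.

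The effect of each genotype was then read as the TE difference, genotype minus control, with a z score over all transcripts of a table and calls at 1.5 and -1.5, and as the log2 changes of footprints and RNA-Seq, counted past 0.5 in either direction. In GS LRRK2 TG, 1 of the 8 genes, Atf4, had a lower TE by this cutoff and 0 had a higher one, while 3.91% of all transcripts were lower and 8.01% higher. None of the 8 passed the fold in footprints (0.338% of transcripts) or in RNA-Seq (2.95%). The 8 TE differences ran from -0.32 for Atf4 to 0.30 for Eif2ak4, with a median of 0.04 against 0.02 over all transcripts.

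In GS/DA LRRK2 TG, no TE difference of the 8 passed the cutoff, where 3.65% of transcripts were higher and 7.36% lower, and none passed the fold in footprints (0.816%) or RNA-Seq (2.72%). Without any 1 of the 4 RNA-Seq libraries, however, 1 to 4 of the 8 genes passed the RNA-Seq fold, and in GS LRRK2 TG and LRRK2 KO 0 to 4 did so. In GS/DA LRRK2 TG, control and genotype libraries were matched by the difference that both groups share. Leaving out 1 library puts that difference into the change. In matched libraries, the RNA-Seq changes were -0.24 and 0.16 for Eif2s1 and -0.03 and 0.20 for Ifrd1. No share over all transcripts is given for the cases with a library left out. The TE differences ran from -0.13 for Ifrd1 to 0.09 for Asns, with a median of -0.04 against -0.05 over all transcripts. Both GS/DA LRRK2 TG libraries lay below both control libraries in footprints for Ppp1r15b, Eif2ak1 and Eif2ak3 and in RNA-Seq for Asns. Over all transcripts, 12.3% lay below and 12% above in this way in footprints, and 1.58% below and 1.79% above in RNA-Seq.

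In LRRK2 KO, 2 of the 8 genes, Atf4 and Eif2ak1, had a lower TE and 0 a higher one, while 6.02% of transcripts were lower and 6.23% higher. None passed the fold in footprints (2.07%) or RNA-Seq (3.18%). The TE differences ran from -0.77 for Atf4 to 0.42 for Eif2s1, with a median of 0.11 against 0.02 over all transcripts. Leaving out 1 library or another put the TE difference on either side of 0 for 6 of the 8 genes in LRRK2 KO, all but Atf4 and Eif2ak1, for 8 in GS/DA LRRK2 TG and for 6 in GS LRRK2 TG, all but Atf4 and Eif2ak4. The share of all transcripts that turned in this way is not given, so these counts do not set any of the 8 genes apart. Both LRRK2 KO libraries lay below both WT libraries in footprints for Atf4 and above both in RNA-Seq for Eif2ak1. Over all transcripts, 6.4% lay below and 6.23% above in footprints, and 7.04% below and 7.05% above in RNA-Seq.

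The replicated test was limma with Benjamini-Hochberg adjustment over 8323 transcripts of the GS/DA table and 9515 of the LRRK2 KO table. At an adjusted p under 0.05 it called 0% of transcripts and 0 of the 8 genes for footprints, RNA-Seq and TE in either table. At an unadjusted p under 0.05 it held 0.024%, 0.024% and 0% of transcripts for footprints, RNA-Seq and TE in GS/DA LRRK2 TG, and 0.126%, 0.0736% and 0.021% in LRRK2 KO, again with 0 of the 8 genes. It did not call Lrrk2 in the LRRK2 KO mice either, whose footprints had a log2 change of -2.003 and an adjusted p of 1.00 in limma with Benjamini-Hochberg adjustment. A fit with a term for the library batch, read from the difference that both groups share between their libraries, called 1 transcript in GS/DA LRRK2 TG footprints, 5 in LRRK2 KO footprints and 8 in LRRK2 KO RNA-Seq. Lrrk2 was the 1 transcript in the former and was among those in both of the latter, with log2 changes of 2.14, -2.003 and -1.49 in that order. That fit likewise called 0 of the 8 genes after adjustment, and Atf4 alone was under an unadjusted p of 0.05, for RNA-Seq in GS/DA LRRK2 TG and for RNA-Seq and TE in LRRK2 KO. The transcripts under that unadjusted level were 2.97%, 4.24% and 0.264% for footprints, RNA-Seq and TE in GS/DA LRRK2 TG and 1.83%, 5.42% and 1.81% in LRRK2 KO.

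**Figure D2:**
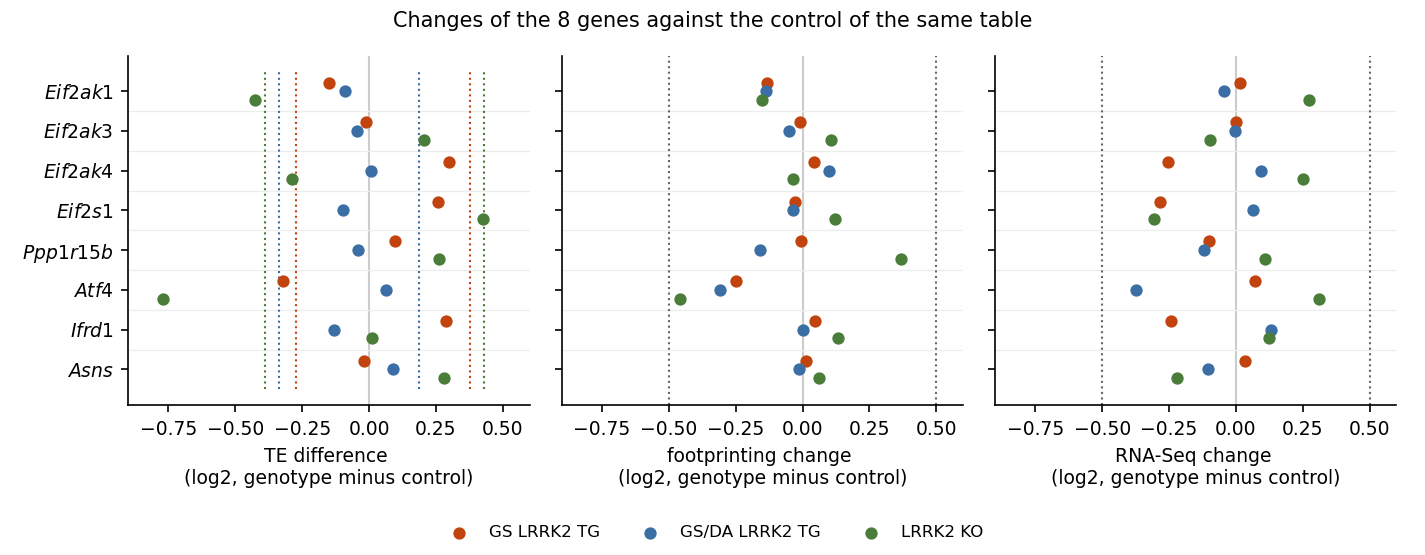
TE difference, footprinting change and RNA-Seq change (log2, genotype minus control) of the 8 genes in the 3 genotypes, each against the control of its own table. Dotted lines mark the TE differences at z of 1.5 and -1.5 in each table, in the colour of the genotype, and log2 changes of 0.5 and -0.5, and the points past a line are Atf4 in GS LRRK2 TG and Atf4 and Eif2ak1 in LRRK2 KO, all to the left in TE.

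Eif2ak1 encodes HRI, the kinase activated by heme shortage and mitochondrial stress. Its footprints were 888 and 832 in the non-TG control libraries and 811 and 755 in GS/DA LRRK2 TG, where the means differed by a log2 change of -0.13. In the LRRK2 KO table its footprints were 297 and 224 in WT and 209.8 and 259.5 in LRRK2 KO, and its RNA-Seq reads 409 and 512.001 in WT and 543 and 570.2 in LRRK2 KO. The footprints overlapped between WT and LRRK2 KO, whereas RNA-Seq was higher in both LRRK2 KO libraries, with matched log2 changes of 0.41 and 0.16. Its TE difference in LRRK2 KO was -0.42 (z -1.63), but z lay within the cutoff when any of the 8 libraries was left out, from -1.48 to -0.51. The difference itself was negative in each of these cases, from -0.61 to -0.21. In some of them it was larger than with all libraries, as without the WT RNA-Seq library of 512.001 reads (-0.60, z -1.11). Because z is taken over all transcripts of the same case, it can shrink while the difference grows. In limma, the TE change of Eif2ak1 in LRRK2 KO was -0.42 with a 95% interval of -1.22 to 0.39. The TE differences of Eif2ak1 were -0.15 in GS LRRK2 TG and -0.09 in GS/DA LRRK2 TG.

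Eif2ak3 encodes PERK, the kinase of the endoplasmic reticulum. Its footprints were 250.5 and 249 in the non-TG control libraries, 244 and 238 in GS/DA LRRK2 TG, then 39.97 and 59.96 in WT and 43.4 and 64.4 in LRRK2 KO. The GS/DA LRRK2 TG libraries lay below the control by log2 changes of only -0.04 and -0.06 in matched libraries, and the LRRK2 KO libraries overlapped WT, with matched changes of 0.12 and 0.10. Eif2ak4 encodes GCN2, the kinase that senses uncharged tRNA. Its footprints were 283 and 243 in the control libraries, 304 and 259 in GS/DA LRRK2 TG, then 91.9 and 78.7 in WT and 99.3 and 67.1 in LRRK2 KO, with overlap in both tables. The matched changes of Eif2ak4 were 0.10 and 0.10 in GS/DA LRRK2 TG and 0.11 and -0.23 in LRRK2 KO. The TE differences of Eif2ak3 and Eif2ak4 were -0.01 and 0.30 in GS LRRK2 TG, -0.05 and 0.01 in GS/DA LRRK2 TG, and 0.21 and -0.29 in LRRK2 KO. Without a library, the TE difference of Eif2ak3 ran from -0.41 to 0.55 in GS LRRK2 TG and from -0.11 to 0.53 in LRRK2 KO, and that of Eif2ak4 in LRRK2 KO from -0.82 to 0.12. Eif2ak2, which encodes PKR, is not among the transcripts listed.

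Eif2s1 encodes eIF2α, the substrate of these kinases. Its footprints were 1343 and 1546 in the non-TG control libraries and 1246 and 1573 in GS/DA LRRK2 TG, and its RNA-Seq reads were 512.4 and 1339.7 in control and 435 and 1500.4 in GS/DA LRRK2 TG. In the LRRK2 KO table its footprints were 405 and 326 in WT and 413 and 381 in LRRK2 KO, and its RNA-Seq reads 363 and 157 in WT and 246 and 175 in LRRK2 KO. All of these groups overlapped, and the RNA-Seq libraries of a group differed by more than the group means. The TE difference of Eif2s1 was 0.42 in LRRK2 KO (z 1.484, just within the cutoff), 0.26 in GS LRRK2 TG and -0.10 in GS/DA LRRK2 TG. Leaving out a library moved it in LRRK2 KO from -0.30, without the WT RNA-Seq library of 363 reads, to 0.91 (z 1.79), without that of 157. It also passed the cutoff without the LRRK2 KO RNA-Seq library of 246 reads (0.69, z 1.53).

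Ppp1r15b encodes CReP, the subunit that directs protein phosphatase 1 to eIF2α in unstressed cells, and its own mRNA carries uORFs. Its footprints were 427 and 472 in the non-TG control libraries and 379.9 and 425 in GS/DA LRRK2 TG, lower in both matched pairs by log2 changes of -0.17 and -0.15. In the LRRK2 KO table they were 43.97 and 95.8 in WT and 74.1 and 106 in LRRK2 KO, which overlapped. The mean footprinting change of Ppp1r15b in LRRK2 KO, 0.37, was the highest of the 8 genes, but it ran from -0.09 to 1.04 when a library was left out. Its TE differences were 0.10 in GS LRRK2 TG, -0.04 in GS/DA LRRK2 TG and 0.26 in LRRK2 KO, the last of which ran from -0.19 to 0.93 in this way. Ppp1r15a, which encodes the stress-induced subunit GADD34, is not among the transcripts listed.

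Atf4 encodes the transcription factor through which the response acts. In the GS table, its footprinting mean was 188 in control and 159 in GS LRRK2 TG, whose libraries held 193 and 124. Its RNA-Seq mean was 2301 in control and 2419 in GS LRRK2 TG, whose libraries held 1945 and 2894. The TE difference was -0.32 (z -1.72), from a footprinting change of -0.25 and an RNA-Seq change of 0.07. One GS LRRK2 TG footprinting library thus lay above the control mean and the other below it. Without the library of 193 footprints the TE difference was -0.67 (z -2.40), and without that of 124 it was -0.04 (z -0.28). Without the RNA-Seq library of 2894 reads it was -0.01 (z -0.32). Without that of 1945 it was -0.58, larger than with all libraries, but its z lay within the cutoff. Since z is taken over all transcripts of the same case, it shrank here while the difference grew. The call by z therefore held in a single case of these 4, although the difference was also larger without the library of 1945 reads. The footprinting library low in Atf4 was the one with more footprints of the cortical marker Tbr1, and the part of this difference in the result was not tested.

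In the GS/DA table, Atf4 had 334 and 176 footprints in the non-TG control libraries and 246 and 167 in GS/DA LRRK2 TG. It had 2649 and 3322 RNA-Seq reads in control and 1888 and 2727 in GS/DA LRRK2 TG. The groups overlapped in both assays, although each matched library was lower in GS/DA LRRK2 TG, by log2 changes of -0.44 and -0.08 in footprints and of -0.49 and -0.28 in RNA-Seq. The means changed by -0.31 in footprints and -0.37 in RNA-Seq, so that TE differed by 0.06 (z 0.80). The RNA-Seq change of Atf4 stood at a percentile of 0.729 over all transcripts. With the library batch as a term, limma gave the RNA-Seq change of Atf4 as -0.39, with a 95% interval of -0.70 to -0.07 and an adjusted p of 0.998 by the Benjamini-Hochberg method. Without that term the interval was -1.43 to 0.66. Leaving out the control footprinting library of 334 put the TE difference of Atf4 at 0.60 (z 2.87), leaving out the GS/DA LRRK2 TG footprinting library of 167 put it at 0.32 (z 1.66), and in the other 6 cases z lay within the cutoff.

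In the LRRK2 KO table, Atf4 had 89.3 and 75.5 footprints in WT and 65.7 and 54.1 in LRRK2 KO. These came from 67 and 97 reads in WT and 47 and 79 in LRRK2 KO, with 95% Poisson intervals of 51.9 to 85.1 and 78.7 to 118 reads in WT and of 34.5 to 62.5 and 62.5 to 98.5 in LRRK2 KO, which cover counting error only. Its RNA-Seq reads, after normalisation, were 380.1 and 869 in WT and 735 and 812 in LRRK2 KO. Both LRRK2 KO libraries lay below both WT libraries in footprints, with matched log2 changes of -0.44 and -0.48, while in RNA-Seq a single WT library stood low and the groups overlapped, with matched changes of 0.95 and -0.10. The TE difference was -0.77 (z -2.89), from a footprinting change of -0.46 and an RNA-Seq change of 0.31, at a percentile of 0.288 over all transcripts. Over the 4 pairings of matched changes in footprints and RNA-Seq, the TE difference of Atf4 was negative in all 4, from -1.43 to -0.34. So was that of Eif2ak4, from -0.61 to -0.07, and that of Eif2ak3 was positive in all 4, while 11.5% of all transcripts were negative in all 4 and 12.4% positive. In GS/DA LRRK2 TG, Eif2ak1 was negative in all 4, from -0.12 to -0.06, and Asns positive, from 0.03 to 0.15, as were 11.1% and 6.87% of all transcripts.

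In limma, the TE change of Atf4 in LRRK2 KO was -0.82, with a 95% interval of -2.07 to 0.43 and an adjusted p of 1.00 by the Benjamini-Hochberg method. With the library batch as a term, the interval was -1.40 to -0.24, the adjusted p was 0.9997, and Atf4 ranked 7 of 9515 by p. Leaving out a library gave TE differences of Atf4 from -1.48, without the WT RNA-Seq library of 869 reads, to -0.29, without that of 380.1, where z was -0.84. The z of Atf4 lay within the cutoff in 3 of these 8 cases, namely also without the WT footprinting library of 89.3 (TE difference -0.64, z -1.49) and without the LRRK2 KO footprinting library of 54.1 (TE difference -0.63, z -1.03). The TE difference of Atf4 in LRRK2 KO was thus negative without any one library, and its size rested on the WT RNA-Seq libraries.

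**Figure D3:**
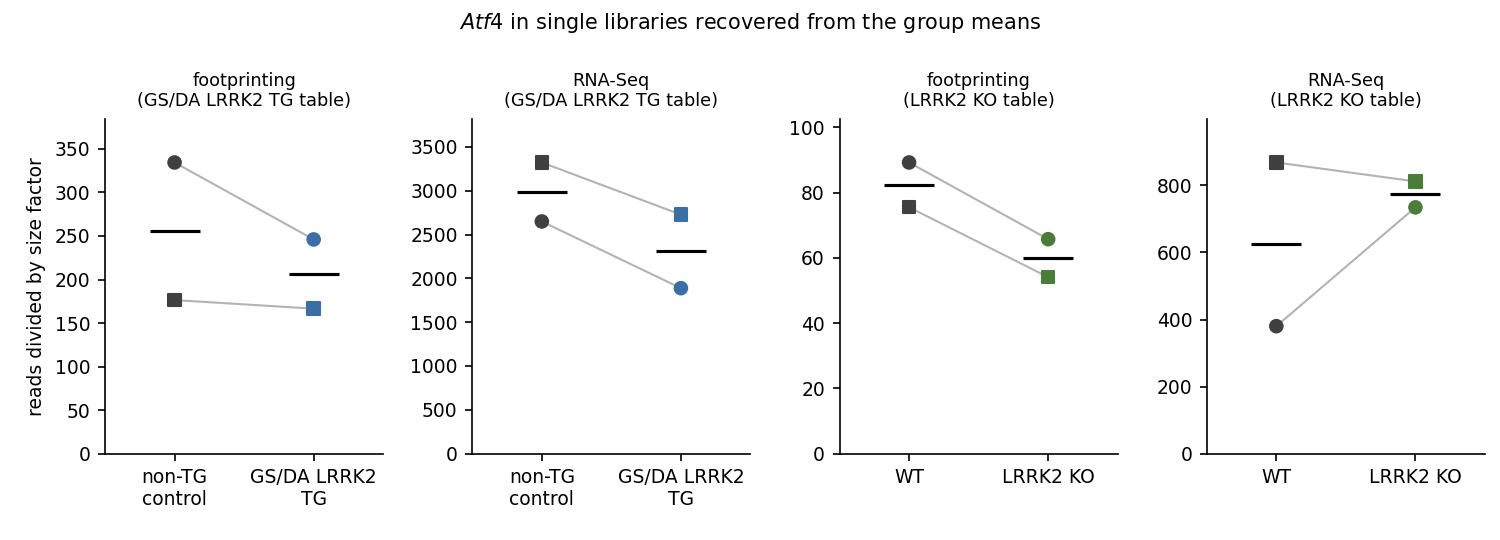
Atf4 in single libraries, as reads divided by the size factor, for footprinting and RNA-Seq in the GS/DA table and in the LRRK2 KO table. Points are libraries, circles and squares joined by a line mark libraries matched by the difference both groups share, and bars are group means, and only the LRRK2 KO footprinting panel has both genotype libraries below both control libraries.

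Ifrd1, a transcriptional coregulator whose mRNA carries a uORF known to control its stability and translation, had 198 and 308 footprints in the non-TG control libraries and 241 and 265 in GS/DA LRRK2 TG. It had 71.9 and 59.96 footprints in WT and 75.5 and 69.2 in LRRK2 KO, and the groups overlapped in both tables. Its TE differences were 0.29 in GS LRRK2 TG, -0.13 in GS/DA LRRK2 TG and 0.01 in LRRK2 KO, all within the cutoff. Leaving out a library turned each of them, within -0.16 to 0.94, -0.78 to 0.68 and -0.27 to 0.25.

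Asns encodes asparagine synthetase, a target of ATF4. It had 3096 and 3635 footprints in the non-TG control libraries and 3032 and 3636 in GS/DA LRRK2 TG, and 2489 and 2518 RNA-Seq reads in control and 2392 and 2264 in GS/DA LRRK2 TG. In the LRRK2 KO table it had 1314 and 863 footprints in WT and 1266 and 1005 in LRRK2 KO, with 1258 and 697 RNA-Seq reads in WT and 973 and 707 in LRRK2 KO. Asns RNA-Seq was lower in both GS/DA LRRK2 TG libraries, by log2 changes of -0.06 and -0.15 in matched libraries, and the other groups overlapped. The RNA-Seq changes of Asns were 0.03 in GS LRRK2 TG, -0.10 in GS/DA LRRK2 TG and -0.22 in LRRK2 KO, and its TE differences -0.02, 0.09 and 0.28. In LRRK2 KO, leaving out a library moved its RNA-Seq change from -0.58 to 0.27 and its TE difference from -0.21 to 0.64. Asns RNA-Seq in the transgenic tables differed little between libraries of a group, unlike that of Eif2s1.

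Further genes of the pathway were taken from lists, some of which hold members of the 8. No gene of these lists had an adjusted p under 0.05 for any contrast in limma with Benjamini-Hochberg adjustment. Of 28 listed ATF4 and CHOP target genes in the transgenic tables and 31 in the LRRK2 KO table, 0 were higher and 1 lower in TE in GS LRRK2 TG, 1 higher and 0 lower in GS/DA LRRK2 TG, and 2 higher and 0 lower in LRRK2 KO. Over all transcripts, 8.01% were higher and 3.91% lower in the first, 3.65% and 7.36% in the next and 6.23% and 6.02% in LRRK2 KO. Their median RNA-Seq changes, the level at which ATF4 acts, were 0.01, 0.04 and -0.09 in that order, against -0.02, 0.06 and 0.01 over all transcripts, and none passed the fold in RNA-Seq, where 2.95%, 2.72% and 3.18% of all transcripts did, a share that amounts to about 1 gene in a list of this size. Sars, a tRNA synthetase, was the gene lower in GS LRRK2 TG (TE difference -0.31), and Psph, of serine synthesis, the one higher in GS/DA LRRK2 TG (0.28). In LRRK2 KO, the TE of Herpud1, of protein degradation at the endoplasmic reticulum, differed by 0.48. It had 196 and 258 footprints in WT and, above both, 297 and 261 in LRRK2 KO, where 6.23% of all transcripts lay above both. The TE of Slc7a11, the cystine and glutamate exchanger, differed by 0.64, with 13.3 and 31.1 footprints in WT and 16.8 and 50.7 in LRRK2 KO, which overlapped. Trib3, Chac1 and Atf3, often used as readouts of the response, are not among the transcripts listed.

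The list of eIF2, eIF2B and reinitiation factors, of which 13 were listed, had 4 genes higher and 1 lower in TE in GS LRRK2 TG, 0 higher and 2 lower in GS/DA LRRK2 TG, and 0 in either direction in LRRK2 KO, where 8.01% and 3.91%, 3.65% and 7.36%, and 6.23% and 6.02% of all transcripts were higher and lower in that order. The median TE differences were 0.26, -0.18 and -0.14, against 0.02, -0.05 and 0.02 over all transcripts. In GS LRRK2 TG, TE differed by 0.83 for Denr, a reinitiation factor, by 0.67 for Eif2s2, the β subunit of eIF2, by 0.54 for Eif2a and by 0.40 for Eif5, and by -0.28 for Eif2b5, the catalytic subunit of the exchange factor eIF2B. In GS/DA LRRK2 TG it differed by -0.44 for Denr and -0.63 for Eif2s2. The RNA-Seq changes of Eif2s2 were -0.52 and 0.67 and its footprinting changes 0.16 and 0.04 in that order of genotypes. Its RNA-Seq reads were 352 and 840.4 in the non-TG control libraries and 294 and 1607 in GS/DA LRRK2 TG, with 181 and 674 for GS LRRK2 TG. Eif2s2 RNA-Seq thus overlapped between GS/DA LRRK2 TG and control. The GS LRRK2 TG libraries held 365 and 767 RNA-Seq reads of Denr, 242 and 984 of Eif2a and 370 and 2673 of Eif5. Those of Eif2b5 were closer, 2128 and 2290. The footprinting changes of Denr, Eif2a and Eif5 in GS LRRK2 TG were 0.29, 0.15 and 0.10, and their RNA-Seq changes -0.54, -0.40 and -0.31. For Denr in GS/DA LRRK2 TG, footprints and RNA-Seq differed by -0.21 and 0.24, and for Eif2b5 in GS LRRK2 TG by -0.18 and 0.10. Denr had 584 and 606 footprints in control and, below both, 517 and 513 in GS/DA LRRK2 TG, where 12.3% of all transcripts lay below both.

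Of 12 listed eIF2 kinases, phosphatase subunits and their partners, 2 were higher and 0 lower in TE in GS LRRK2 TG, 0 higher and 2 lower in GS/DA LRRK2 TG, and 1, Eif2ak1, lower in LRRK2 KO, against 8.01% of all transcripts higher in GS LRRK2 TG, 7.36% lower in GS/DA LRRK2 TG and 6.02% lower in LRRK2 KO. The median TE differences were 0.11, -0.06 and 0.03. Abce1, a ribosome recycling factor, had TE differences of 0.64 in GS LRRK2 TG and -0.50 in GS/DA LRRK2 TG, with footprinting changes of 0.05 and -0.02. Dnajc3, a cochaperone and inhibitor of eIF2 kinases, differed by 0.41 in GS LRRK2 TG. Its RNA-Seq libraries there held 47.6 and 307 reads, and its footprinting change was -0.09. Nck1, an adaptor protein, differed by -0.44 in GS/DA LRRK2 TG. Nck1 had 620.03 and 651 footprints in control and, below both, 556 and 512.1 in GS/DA LRRK2 TG. Over all transcripts, 12.3% lay below both in this way. Abce1 had 269 and 1169.7 RNA-Seq reads in the non-TG control libraries and 158 and 1847 in GS/DA LRRK2 TG, so its RNA-Seq varied most within groups.

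Of 7 listed transcripts with regulatory uORFs, which include Atf4, Ifrd1 and Ppp1r15b, 0 were higher in TE in any table, and 1, 1 and 2 were lower, against 3.91%, 7.36% and 6.02% of all transcripts. Atf4 was lower in GS LRRK2 TG, Azin1, an inhibitor of antizyme, in GS/DA LRRK2 TG (-0.51), and Atf4 and Mdm2, the ubiquitin ligase of p53, in LRRK2 KO (-0.47 for Mdm2). The median TE differences of the list were 0.15, -0.06 and -0.12, and its median control log2 TE was -0.94, -0.67 and -1.24. Mdm2 had 266 and 132 footprints in WT and 161 and 159 in LRRK2 KO, which overlapped. Of the other arms of the unfolded protein response, 7 genes were listed in the transgenic tables and 8 in the LRRK2 KO table, and 0 passed the cutoff or the fold in any table. With 3.65% to 8.01% of all transcripts past the TE cutoff in each direction and 0.338% to 3.18% past the fold, a count of 0 among so few genes does not set this list apart.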

How the data were processed

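The authors removed rRNA reads, aligned the others to mm9 with TopHat2 2.0.11 and Bowtie2 2.2.2, counted CDS reads over all isoforms of a gene together and normalised with DESeq 1.20, by the study's methods and the submitters' processing notes. The signal deposited by the authors is the mean over the libraries of a group of reads divided by DESeq size factors, on a scale of its own in each table. A value of another kind, the lowest predicted folding energy over a gene's isoforms (5′UTR, kcal/mol), was deposited too and taken by the authors from the UCSC mm9 annotation. Their columns for TE, TE difference and z hold comparisons of the authors' own and were not used.

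Footprinting and RNA-Seq of the striatum were analysed, and samples of the ventral midbrain were left out. TE was computed from the means with a pseudocount of 0. Reads of single libraries were solved as pairs of whole numbers, and libraries of control and genotype were matched by the difference that both groups share. limma 3.58.1 in R 4.3.3 was fitted over all recovered transcripts on log2 values plus 10, in a model of genotype, assay and the interaction of both, with Benjamini-Hochberg adjustment of p. Recovery and model were tested on simulated data, of which no result is given here. Recovery resolved 97.8% to 99.8% of the transcripts of a column, against 0.0117% to 3.88% when a shift of 0.1234 was applied. The rules differed, so the rates are not fully comparable. The shifted rate counted only values that a single pair of reads fits. Recovery also kept a value that several pairs fit if a single one of them had a plausible share of the mean. Python 3.11.15 with pandas 2.3.3 and scipy 1.17.1 did the rest. The CCDS transcript with the longest CDS in the NCBIM37 annotation, or for genes without a CCDS entry, such as Eif2ak1, another annotated one, gave the 5′UTR and CDS, matched for 97.1% of symbols in the transgenic tables and 97.0% in the LRRK2 KO table.

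All 10 genes are named, and, of each pathway list, at most the 6 genes with the largest size among those past a cutoff in any table. The other genes named are the 3 nearest to Atf4 in TE, Lrrk2, genes of the marker lists, and genes given as not among the transcripts listed. The genes and lists were chosen with earlier results of these data known. Fitting each assay on its own was chosen after seeing the data.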

Additional observations from a re-analysis of the deposited data

How the results depend on the processing

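No paired analysis was possible because the columns of means carry no replicate numbers from which pairs could be taken. This limit concerns pairs by replicate number only. The matched changes and the fit with a batch term do pair libraries of control and genotype. That pairing was read from the values themselves and could not be checked against replicate numbers. Of the 8 genes, those past the TE cutoff numbered 1 in GS LRRK2 TG and 2 in LRRK2 KO. With group means of at least 2 to the power of 8 or 9, which removed Atf4 and, in LRRK2 KO, Eif2ak1, both counts were 0. With a z cutoff of 1 they were 3 and 4, and with a cutoff of 2 they were 0 and 1. Leaving out a library gave 0 to 1 in GS LRRK2 TG, 0 to 1 in GS/DA LRRK2 TG and 0 to 3 in LRRK2 KO. In the same order, the genes past the fold numbered 0 to 1, 0 to 1 and 0 to 2 for footprints and 0 to 4, 1 to 4 and 0 to 4 for RNA-Seq. The cause of these shifts was not tested. For these settings no share over all transcripts is given, so the counts do not set the 8 genes apart. limma with the library batch as a term called 1 transcript for GS/DA LRRK2 TG footprints, 5 for LRRK2 KO footprints and 8 for LRRK2 KO RNA-Seq, but 0 of the 8 genes. Adding 10 to the means, or basing z on median and scaled MAD, gave 3 TE calls in LRRK2 KO, with Eif2s1 added, and 1 in GS LRRK2 TG. Keeping 1 transcript per symbol left 1 and 2 TE calls, and centring left 0 genes past the fold. limma with a pseudocount of 1, no trend, total reads as scaling, voom weights or each assay on its own called 0 transcripts. Where a library was left out of limma, the lone library was assumed to vary like the others. RNA-Seq changes in GS/DA LRRK2 TG passed the fold in both directions for Eif2s1, from -1.09 to 0.92, and Ifrd1, from -0.68 to 0.78, depending on the library left out. In matched libraries they were -0.24 and 0.16 for Eif2s1 and -0.03 and 0.20 for Ifrd1, all within the fold.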
